A study of Sus scrofa with 48 samples.

Results

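Transcripts of 50 genes of DNA replication and the mitotic cell cycle were examined in the subcutaneous adipose tissue (SCAT) of 48 growing pigs. The genes were listed by name and by what they are known to do, with no threshold on their values. Earlier results of these data were known when they were chosen, so shares of them called are given as description. Of the list, 10 set the pace of the G1 phase, 4 are inhibitors of cyclin-dependent kinases, 14 act in DNA replication and 22 in mitosis. Of the 50, 40 had a probe that could be named here and 38 passed a filter on dim probes, among 11084 genes tested. RRM1 and KIF20A were below that filter. CCNE2, RB1, MCM4, MCM5, MCM7, GINS1, TYMS, TK1, CCNA2 and BUB1B were not analysed here.

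The pigs were Large White barrows of 132 days of age per the labels, from 2 lines bred in opposite directions for residual feed intake (RFI), where a low value marks the more efficient animal. Each line was fed a diet rich in fat and fiber (HF) or a starch-based diet poor in fat and fiber (LF), both offered without restriction. Each of the 4 combinations of diet and line held 12 pigs, with 1 array per pig. Each line is a single selected population, so a line difference compares these 2 populations.

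Dividing cells copy their DNA in S phase and separate it in mitosis. D-type and E-type cyclins with their kinases carry a cell through G1, CDK inhibitors hold it there, and E2F factors switch on the replication genes, among them the MCM helicase. Genes of mitosis such as CDK1, CCNB1 and TOP2A are switched on later and together, so that their transcripts are used as markers of dividing cells. Mature adipocytes do not divide, and in adipose tissue such transcripts mostly come from precursor, vascular and immune cells. All 8 adipocyte markers listed were measured, with ADIPOQ, the gene of adiponectin, at a mean log2 level of 9.14 above the median probe. In whole tissue, fewer cells of a type and less RNA per cell cannot be told apart.

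Values are log2 signals centred on the median of each array, so that 0 is the median probe. A gene was called with the cut-offs of the study, a raw p under 0.01, an adjusted p (Benjamini-Hochberg, over all genes tested) under 0.08 and a fold over 1.1, here in limma. Between 62.2% and 81.9% of probes were well above background per array, with a median of 74.7%. The lowest share belonged to HF high RFI pig 2 and the next, 65.7%, to HF low RFI pig 2.

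Several results below turn on which stretch of a transcript a probe reads. The last 30 of the 60 bases of the probes concerned are therefore given, 5′ to 3′, as the array files list them. Capitals mark AATAAA, the usual signal for the addition of the poly(A) tail, which was searched on the given strand and stands in the last 30 bases of 7.99% of the 60305 probes.
WDHD1 probe A_72_P359418: tggaattcaactgctaacagctgggaaaaa
WDHD1 probe A_72_P132576: tgtctgtactagacataggggaccatgttt
WDHD1 probe O13956: ctaatggaaagatgtcaggcagtaaggtat
AURKB probe A_72_P440256: ttAATAAAggcggaagcgttttgtaaaaaa
AURKB probe A_72_P735663: gtgtatgtgtagttagaaggaggggtccct
AURKB probe A_72_P745159: gaaggatctacttgattctggagtatgccc
CDKN1A probe A_72_P152936: AATAAAtatttctggtgattttacttgtaa
CDKN1A probe A_72_P477002: acgtttaggtagcagaaaaataggcttatt
CCNE1 probe A_72_P212502: gagaccctactttttcaccttgtgatgacg
MCM2 probe O10777: caggatgaacaagttcagccatgatctgaa
The 3 probes of WDHD1 share no run longer than 6 bases with each other, and those of AURKB none longer than 7. Of the AURKB probes, the brightest holds AATAAA and ends in a run of 6 A. The brightest CDKN1A probe, A_72_P715228, is not printed because it shares 54 bases in a row with A_72_P152936.

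The number of these genes called by diet was too small to set the list apart from all genes tested. In the comparison of HF with LF pigs, 3 of the 38 members were called (7.89%), against 12.6% of all genes tested. CCNE1 and CDKN1A were lower in HF pigs and WDHD1 was higher, where 9.32% of all genes were called lower and 3.28% higher. The median difference of the 38 was -0.0029 on the log2 scale, with 18 positive and 20 negative, while that of all genes was -0.04. Between lines, WDHD1 alone was called among the 38 (2.63%), against 1.18% of all genes, and it was lower in low RFI pigs. Over all genes tested, the low RFI line was called lower in 0.388% and higher in 0.794%. For the interaction of diet and line no member was called and none had an unadjusted p under 0.05 in limma, as against 0% of all genes called and 0.902% under 0.05. The unmoderated analysis of variance of the study's methods called no member for the interaction either.

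**Figure D1:**
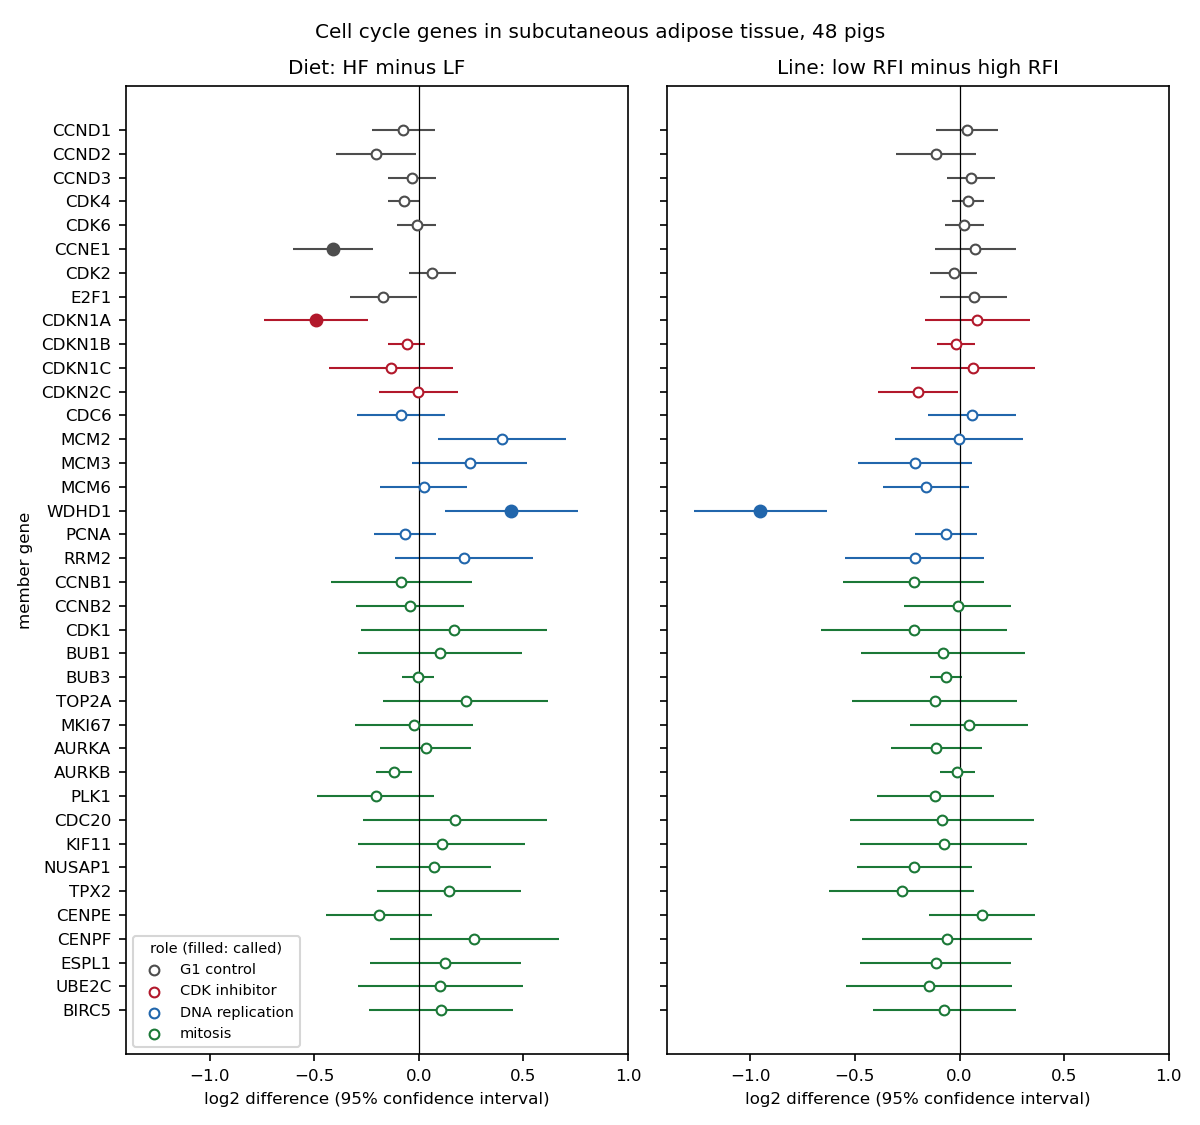
Log2 differences of the 38 members tested, for diet (HF minus LF, left) and line (low RFI minus high RFI, right), with 95% confidence intervals from limma over 48 pigs. Filled points passed all 3 cut-offs: CCNE1, CDKN1A and WDHD1 for diet and WDHD1 for line.

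Among the genes of G1 control, CCNE1 fell with the HF diet and the other 7 tested did not pass the cut-offs. CCNE1 encodes cyclin E1, which activates CDK2 at the entry into S phase. Its level ran from -3.10 to -1.57 (median -1.91) in HF low RFI pigs and from -2.66 to -1.69 (median -2.35) in HF high RFI pigs. In LF pigs it ran from -2.28 to -1.25 (median -1.82) in the low RFI line and from -2.06 to -1.26 (median -1.74) in the high RFI line. The diets overlapped, but 9 HF pigs lay below every LF pig and 7 LF pigs above every HF pig. The log2 difference was -0.41 ± 0.10 (SE, 24 pigs per diet; adjusted p = 0.00341 in limma), a 1.33-fold lower level in HF pigs.

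The diet difference of CCNE1 was -0.58 ± 0.14 within the high RFI line and -0.24 ± 0.14 within the low RFI line. The interaction between them had p = 0.0796 before adjustment in limma, the smallest among the members. CCNE1 was lower in HF pigs on all 6 slides, by -0.74 to -0.12, and on both scan dates, by -0.43 and -0.39. On the second scan date alone, with 24 pigs, it missed the cut-offs (adjusted p = 0.168 in limma).

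The D-type cyclins start the passage through G1 with CDK4 and CDK6. CCND2 differed by -0.21 ± 0.09 between diets (adjusted p = 0.156 in limma) and by -0.11 ± 0.09 between lines, the smallest p of this group by line (adjusted p = 0.806 in limma). E2F1, the factor that turns on replication genes, differed by -0.17 ± 0.08 by diet (adjusted p = 0.161 in limma). Its diet difference was negative on all 6 slides, and it passed the cut-offs once slide or scan date was included as a block. CCND1, CCND3, CDK4, CDK6 and CDK2 differed by -0.07 to 0.06 between diets. In this group, 7 of the 8 diet differences and 2 of the 8 line differences were negative.

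CDKN1A was the inhibitor that responded to diet. It encodes p21, which blocks cyclin E with CDK2 and is a classical target of p53. In HF pigs its level ran from 5.47 to 6.46 (median 5.78) in the low RFI line and from 4.84 to 6.47 (median 6.08) in the high RFI line. In LF pigs it ran from 5.43 to 7.19 (median 6.49) and from 5.78 to 7.09 (median 6.13), respectively. The highest 10 values were all in LF pigs, and 21 of 24 LF pigs exceeded the median of the HF pigs. The log2 difference was -0.49 ± 0.12 (SE, 24 pigs per diet; adjusted p = 0.00731 in limma), a 1.40-fold lower level in HF pigs.

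All 4 probes of CDKN1A gave a lower level in HF pigs. The pair with overlapping sequence gave -0.49 and -0.47, the separate probe A_72_P477002 gave -0.55, and these 3 passed the cut-offs when all probes were fitted together. The dimmest, O11893, gave -0.28 ± 0.14 (adjusted p = 0.196 in limma). The difference was negative on all 6 slides, at -1.08 to -0.21, and was -0.29 on the first scan date and -0.69 on the second. On the first scan date alone it missed the cut-offs (adjusted p = 0.286 in limma).

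The other inhibitors did not pass the cut-offs. CDKN2C encodes p18, which binds CDK4 and CDK6, and had the smallest p of the group by line. It differed by -0.20 ± 0.09 (adjusted p = 0.442 in limma) in low RFI pigs and was negative on all 6 slides. Its diet difference was -0.0021 ± 0.0942. CDKN1B (p27) differed by -0.06 ± 0.04 and CDKN1C (p57) by -0.13 ± 0.15 between diets.

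WDHD1 showed the widest gap between the lines. Its protein, also known as AND-1, holds the MCM helicase and DNA polymerase alpha together at the replication fork. In high RFI pigs its level kept to a narrow band, from 0.93 to 1.72 (median 1.24) on the HF diet and from 0.60 to 1.29 (median 1.02) on the LF diet. In low RFI pigs it ran from -1.07 to 1.45 (median 0.57) on the HF diet and from -1.28 to 1.02 (median 0.04) on the LF diet. Of the 24 low RFI pigs, 16 lay below every high RFI pig, 6 on the HF and 10 on the LF diet.

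The log2 difference of WDHD1 between lines was -0.95 ± 0.16 (SE, 24 pigs per line; adjusted p = 0.000605 in limma), a 1.94-fold lower signal of its brightest probe in low RFI pigs. A two-sided permutation test of the same difference, with line permuted within diet, gave p = 1e-05, the smallest that 100000 permutations can give. That test was chosen after the values were seen, since the spread was unequal: the SD was 0.81 in low RFI pigs and 0.28 in high RFI pigs. It was 1 of 5 such tests, none adjusted. By diet these gave permutation p = 0.00916 for WDHD1, 0.00017 for CCNE1, 0.00031 for CDKN1A and 0.01337 for MCM2. The line difference of WDHD1 was -0.81 ± 0.22 on the HF diet and -1.1 ± 0.22 on the LF diet. It was negative on all 6 slides, at -1.68 to -0.51, and came to -0.94 and -0.97 on the first and second scan date. On the second scan date alone WDHD1 missed the cut-offs by line (adjusted p = 0.498 in limma).

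The low RFI pigs spread widely on the brightest probe. The largest gap between their neighbouring values stretched from -0.84 to -0.12, with 6 low RFI pigs below it, 2 on the HF and 4 on the LF diet. Any set of values has a largest gap, and whether these pigs form a group was not tested. These 6 pigs were spread over 4 slides and both scan dates. The lowest of the 24 high RFI pigs stood at 0.60. On probe O13956 the 6 were not apart from the other low RFI pigs. There HF low RFI pig 3, among the 6, stood at -4.19 and LF low RFI pig 9, not among them, at -4.62.

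By diet WDHD1 was higher in HF pigs, by 0.44 ± 0.16 (adjusted p = 0.0606 in limma), near the edge of the cut-offs. The diet difference was 0.59 ± 0.22 within the low RFI line and 0.29 ± 0.22 within the high RFI line, and was positive on all 6 slides. It missed the cut-offs with the array position as a block (0.42, adjusted p = 0.16 in limma), with no filter on dim probes (0.43, adjusted p = 0.0839) and on either scan date alone.

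The 3 WDHD1 probes did not give the same line difference. With all probes fitted together, the brightest gave -0.95 ± 0.16 and O13956 gave -0.77 ± 0.16 (adjusted p = 0.00885 in limma), while A_72_P132576 gave -0.13 ± 0.09 (adjusted p = 0.693 in limma). On A_72_P132576 the lines overlapped almost fully, from -1.399 to -0.08 in low RFI and from -1.15 to -0.11 in high RFI pigs, and 2 low RFI pigs lay below every high RFI pig. On O13956, 12 did. All 3 probes were higher in HF pigs, by 0.24 to 0.44, but only the brightest passed the cut-offs by diet. A_72_P132576 gave 0.24 ± 0.09 (p = 0.011, adjusted p = 0.0772 in limma) and O13956 gave 0.27 ± 0.16 (adjusted p = 0.293 in limma). The line difference is therefore one of probe signal, and whether it lies in the level of the transcript, in its form or in a base difference under a probe was not tested.

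**Figure D2:**
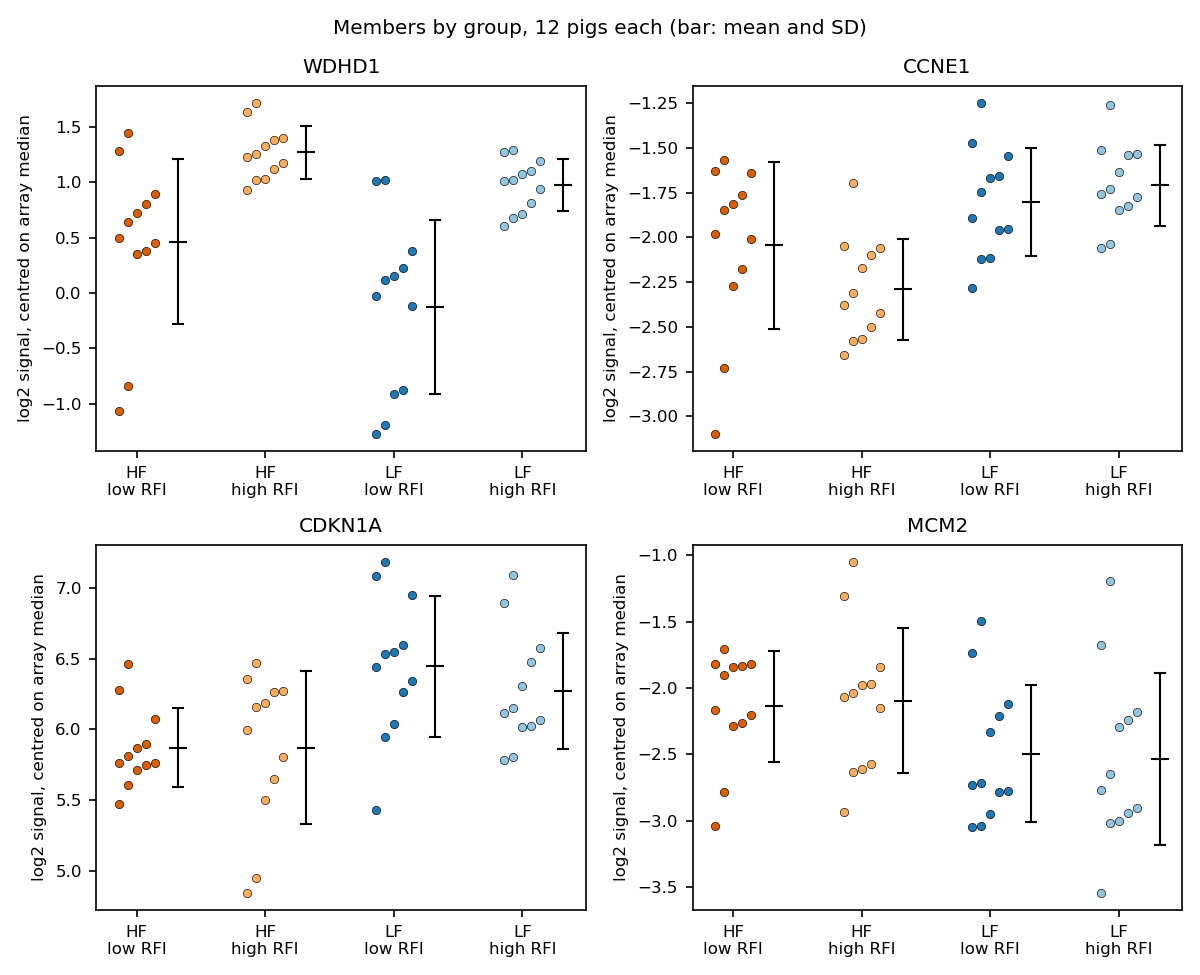
Level of WDHD1, CCNE1, CDKN1A and MCM2 in each pig by group (log2 signal centred on the array median), with the mean and SD of 12 pigs beside each group. WDHD1 keeps between 0.60 and 1.72 in all high RFI pigs and reaches -1.28 in low RFI pigs.

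The MCM genes encode the subunits of the replicative helicase. MCM2 stood just outside the cut-offs for diet. Its level ran from -3.04 to -1.05 (median -2.05) in HF pigs and from -3.55 to -1.20 (median -2.73) in LF pigs, and 21 of 24 HF pigs exceeded the LF median. The log2 difference was 0.40 ± 0.15 (p = 0.0117, adjusted p = 0.0806 in limma). It was positive on all 6 slides, at 0.01 to 0.81, but differed in size between the scan dates, 0.20 on the first and 0.59 on the second. With slide as a block the adjusted p was 0.0327 in limma, and with scan date as a block 0.0305, both past the cut-offs.

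No line difference was seen in MCM2, at -0.0019 ± 0.152, with a 95% interval from -0.31 to 0.30. MCM3 differed by 0.24 ± 0.14 by diet and -0.21 ± 0.14 by line, and MCM6 by 0.02 ± 0.10 and -0.16 ± 0.10. None of these passed the cut-offs.

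Of the remaining replication genes, PCNA, the sliding clamp of the DNA polymerases, ran from -0.75 to 0.25 over the 48 pigs. It differed by -0.07 ± 0.07 by diet and -0.06 ± 0.07 by line, and neither passed. RRM2, the regulated subunit of ribonucleotide reductase, differed by 0.21 ± 0.16 and -0.22 ± 0.16. CDC6, which loads the MCM complex, differed by -0.09 ± 0.10 and 0.06 ± 0.10. In all, 5 of the 7 replication genes tested were higher in HF pigs and 6 were lower in low RFI pigs, with medians of 0.21 and -0.16.

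None of the 19 mitosis genes tested passed the cut-offs for diet, line or interaction, in limma or in the unmoderated analysis of variance. AURKB had an unadjusted p under 0.05 for diet in limma, and no gene of the group had one for line. The differences were small beside the spread between pigs. TOP2A, which untangles DNA before its separation, ran from -0.09 to 2.87 in HF pigs and from -0.21 to 2.60 in LF pigs. CDK1, the kinase that starts mitosis, ran from -1.69 to 1.48 and from -2.09 to 1.11. CCNB1, its cyclin, ran from -1.12 to 1.33 and from -1.21 to 1.29. The groups overlapped over nearly their whole range for each of the 3.

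The diet difference of TOP2A was 0.22 ± 0.20 with a 95% interval from -0.17 to 0.62, that of CDK1 0.17 ± 0.22 (-0.28 to 0.61), and that of CCNB1 -0.09 ± 0.17 (-0.42 to 0.25). By line the same genes differed by -0.12 ± 0.20, -0.22 ± 0.22 and -0.22 ± 0.17, with intervals from -0.51 to 0.28, -0.66 to 0.23 and -0.56 to 0.12. By diet, the interval of CCNB1 just reached a fall of the size found for CCNE1 (-0.41). Those of TOP2A and CDK1 did not, and reached only a rise of that size. By line, the intervals of all 3 reached a fall of that size.

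**Figure D3:**
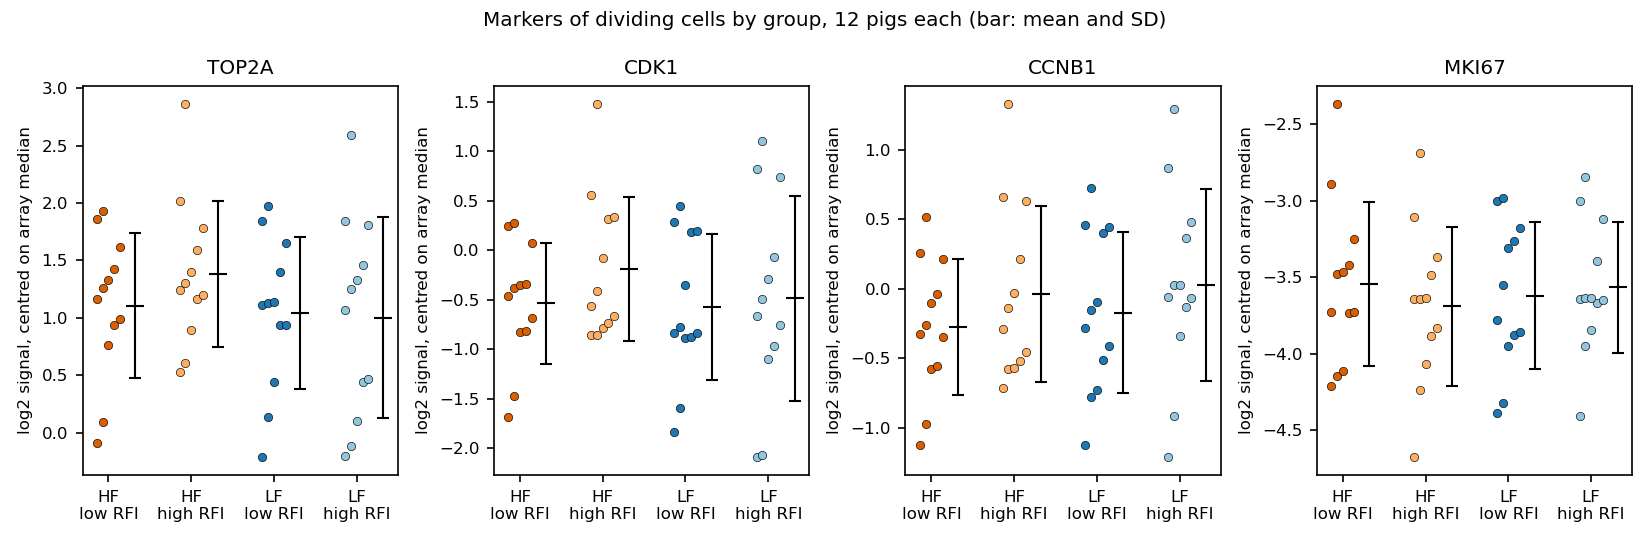
Level of TOP2A, CDK1, CCNB1 and MKI67 in each pig by group (log2 signal centred on the array median), with the mean and SD of 12 pigs beside each group. The 4 groups overlap in each gene, and HF high RFI pig 2 is the highest point of TOP2A, CDK1 and CCNB1.

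MKI67, the gene of the Ki-67 antigen used to count dividing cells, was read by 1 dim probe that was well above background on 41 of 48 arrays. Its level ran from -4.68 to -2.37 in HF and from -4.41 to -2.85 in LF pigs, and it differed by -0.02 ± 0.14 by diet and 0.05 ± 0.14 by line. A pair of brighter probes that the array files also label MKI67 carried the accession of NIFK, whose product binds the Ki-67 protein. They were read as NIFK and were lower in HF pigs, by -0.24 ± 0.05 and -0.21 ± 0.05 (adjusted p = 0.000636 and 0.00671 in limma). By the array label alone, MKI67 would thus have been called lower on the HF diet.

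AURKB encodes the kinase of the chromosomal passenger complex. Its brightest probe ran from 3.03 to 3.57 in HF and from 3.21 to 3.65 in LF pigs, a difference of -0.12 ± 0.04 (adjusted p = 0.0577 in limma) that stayed under the fold of 1.1. By line it gave -0.0097 ± 0.0423. The dimmer probes gave another picture. Between low and high RFI pigs, A_72_P735663 differed by -0.35 ± 0.13 (adjusted p = 0.221 in limma) and A_72_P745159 by -0.60 ± 0.17 (adjusted p = 0.065 in limma). The latter passed the cut-offs when all probes were fitted together. On A_72_P745159, 9 high RFI pigs lay above every low RFI pig and 3 low RFI pigs below every high RFI pig. Neither dimmer probe differed by diet beyond its error, at 0.02 ± 0.13 and -0.0001 ± 0.168.

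**Figure D4:**
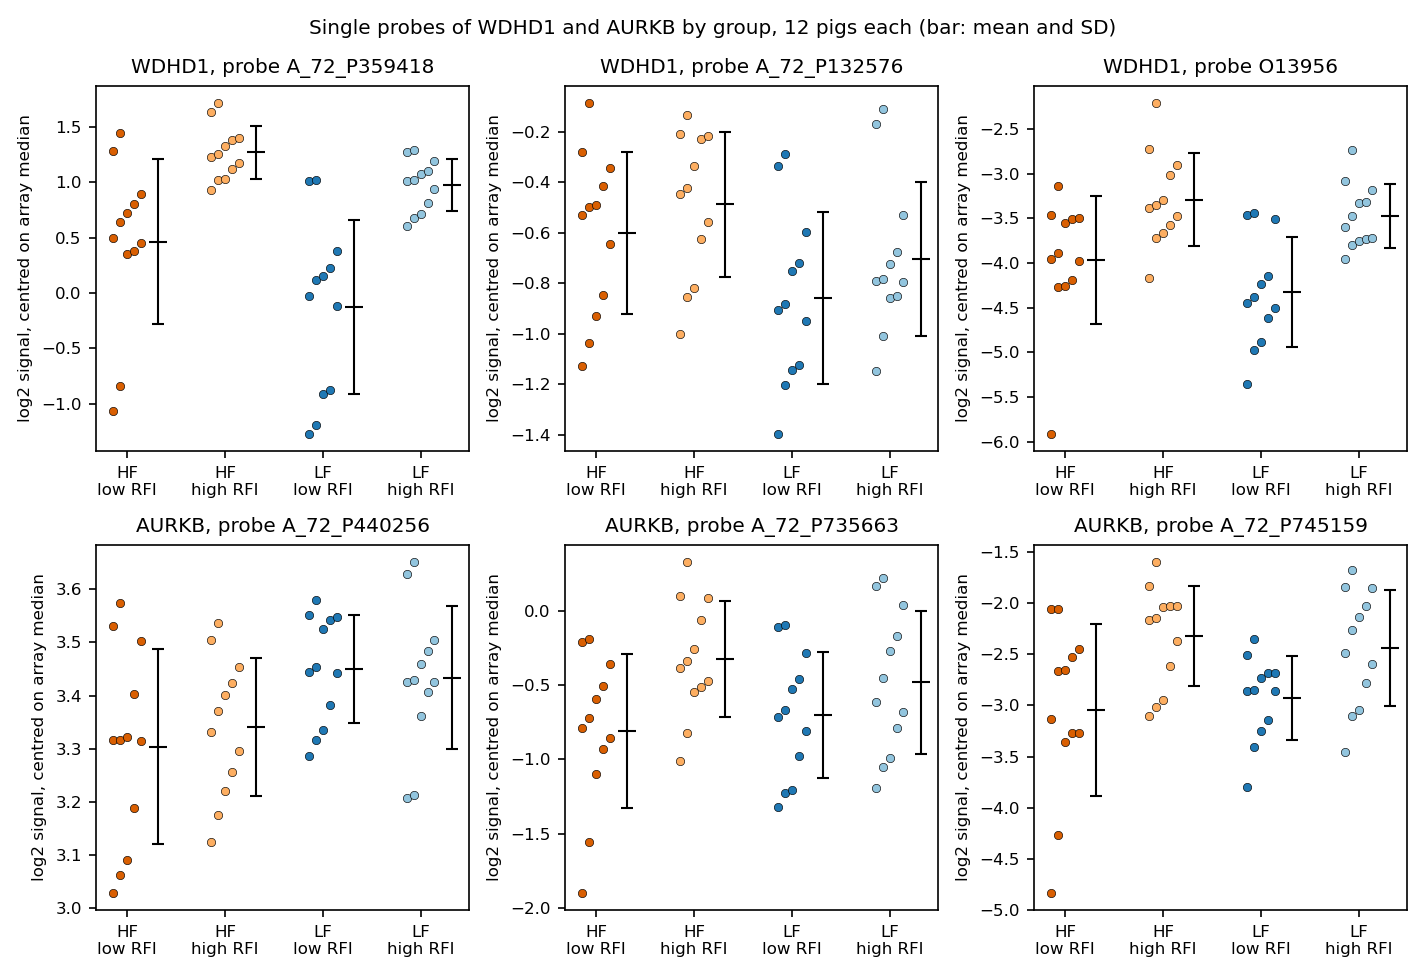
Level of each of the 3 probes of WDHD1 (top) and AURKB (bottom) in each pig by group (log2 signal centred on the array median), with the mean and SD of 12 pigs beside each group. On the WDHD1 probes A_72_P359418, O13956 and A_72_P132576, 16, 12 and 2 low RFI pigs lie below every high RFI pig, and on the AURKB probes A_72_P440256, A_72_P735663 and A_72_P745159, 3, 5 and 3.

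BUB3, a protein of the spindle checkpoint, had the smallest p by line in this group at -0.06 ± 0.04 (adjusted p = 0.629 in limma) and ran from 2.89 to 3.36 over all pigs. The other mitosis genes, which include the kinases AURKA and PLK1, the motor KIF11, the centromere proteins CENPE and CENPF, and UBE2C and CDC20 of the anaphase-promoting complex, differed by -0.21 to 0.26 between diets. Between lines TPX2, a spindle assembly factor, had the largest difference of the 19 at -0.28 ± 0.17 (adjusted p = 0.65 in limma).

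The signs leaned one way by line without any gene passing. Of the 19 mitosis genes 17 were lower in low RFI pigs, with a median of -0.08, while 41.4% of all genes were below 0. By diet 12 of 19 were higher in HF pigs, with a median of 0.10, while 62.3% of all genes were below 0. The genes vary together, so these signs are not separate observations. HF high RFI pig 2, the array with the fewest probes above background, was the highest of 48 for 11 of the 14 mitosis genes that vary together. Without it and HF low RFI pig 2, 18 of the 26 replication and mitosis genes were lower in low RFI pigs, against 23 of 26 with all arrays, and the median moved from -0.10 to -0.05. By diet 16 of these 26 were then higher in HF pigs, against 17, and the median moved from 0.10 to 0.05. Within the first and second scan date 13 and 19 of the 26 were higher in HF pigs, with medians of 0.0036 and 0.16. The diet median was 0.04 with normexp background correction and 0.03 with array weights, where 15 of 26 were higher. By line 22 and 18 of the 26 were lower in low RFI pigs within the first and second scan date, with medians of -0.20 and -0.03, and with array weights 21 of 26 were, with a median of -0.17.

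Among the markers of other cell types, PDGFRA was the only gene called, by diet. Some lists leaned the way of these signs and others did not. Of 8 macrophage markers, 6 were lower in low RFI pigs, with a median of -0.18, and their mean level ran from 0.88 to 2.37 in low RFI and from 1.105 to 2.32 in high RFI pigs. Of 8 markers of preadipocytes and fibroblasts, 7 were lower in low RFI pigs, and 7 were higher in HF pigs with a median of 0.18. The mean level of these 8 ran from 4.75 to 5.52 in HF and from 4.38 to 5.75 in LF pigs. By line, 5 of 7 lymphocyte markers and 5 of 8 adipocyte markers were higher in low RFI pigs, each with a median of 0.09, and 3 of 6 endothelial markers were, with a median of 0.04. By diet, the median of the macrophage markers was 0.04, that of the lymphocyte markers 0.03, that of the endothelial markers 0.0036 and that of the adipocyte markers -0.03. All 7 skeletal muscle markers and all 3 blood markers tested were lower in HF pigs, with medians of -0.22 and -0.12. The mean level of the muscle markers ran from -1.22 to 1.19 (median -0.79) in HF and from -1.08 to 1.72 (median -0.51) in LF pigs, and HF low RFI pig 8, LF high RFI pig 11 and LF low RFI pig 9 stood above the others, whose highest was 0.1145. By line 4 of the 7 muscle and 1 of the 3 blood markers were higher in low RFI pigs, with medians of 0.06 and -0.06. A marker entered these lists if it passed the filter in any group, so the sign of a dim marker can reflect the group that let it in. The part of these markers in the differences of the cell cycle genes was not tested.

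Pigs differed far more than groups did, and mostly in the same direction for many mitosis genes. After the group means were removed, the median Pearson r over the 171 pairs of mitosis genes was 0.43, against 0.0073 over all pairs of genes tested. With slide means removed too it was 0.54, against 0.013. The most alike pairs were TOP2A with CENPF at r = 0.98 and CDK1 with UBE2C at r = 0.96, each across 48 pigs. In 14 of the 19 genes the median r with the other mitosis genes was over 0.3. A level above the median of all pigs in 13 or more of these 14 was found in 3 HF high RFI, 3 HF low RFI, 4 LF high RFI and 4 LF low RFI pigs. Of these pigs 11 were on the first scan date and 3 on the second, and 13 of the 14 genes were lower on the second, by -0.73 to -0.25.

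The markers named for this purpose, MKI67, TOP2A, CDK1, CCNB1, PCNA and MCM2, were paired with each other and with the called members, 36 pairs in all. Labels were permuted within groups but not within slides or scan dates. The p-values of the pairs can therefore also reflect shifts shared by a slide or scan date. CDK1 and CCNB1 gave r = 0.94 and rho = 0.93 (permutation p = 1e-05 for each, the smallest that 100000 permutations can give, and adjusted p = 4.5e-05 and 6e-05). Without the 2 pigs farthest from the median of CDK1, r was 0.93, and it was 0.92 and 0.94 within the scan dates. MCM2 with PCNA gave r = 0.76 and rho = 0.745 (permutation p = 1e-05 for each, adjusted p = 4.5e-05 and 6e-05). Without the 2 farthest pigs r was 0.71, and it was 0.75 on the first scan date and 0.43 on the second. With slide means removed, r was 0.93 for CDK1 with CCNB1 and 0.67 for MCM2 with PCNA.

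The pairs of MKI67 had lower r than these. With TOP2A it gave r = 0.43 and rho = 0.53 (permutation p = 0.00281 and 0.00024, adjusted p = 0.0092 and 0.00096), r = 0.47 without the 2 pigs farthest from the median of MKI67, and 0.57 and 0.54 within the scan dates. With CDK1 it gave r = 0.32 and rho = 0.42 (permutation p = 0.0263 and 0.00453, adjusted p = 0.0729 and 0.0125), r = 0.36 without the 2 farthest pigs, and 0.63 and 0.42 within the scan dates. With MCM2 it gave r = 0.14 and rho = 0.25 (permutation p = 0.356 and 0.0935, adjusted p = 0.611 and 0.24), r = 0.26 without the 2 farthest pigs, and 0.64 and 0.02 within the scan dates. With CCNB1 it gave r = 0.41 and rho = 0.50 (permutation p = 0.00484 and 0.00057, adjusted p = 0.0145 and 0.00187), r = 0.42 without the 2 farthest pigs, and 0.70 and 0.47 within the scan dates. With PCNA it gave r = 0.22 and rho = 0.24 (permutation p = 0.14 and 0.114, adjusted p = 0.323 and 0.256), r = 0.245 without the 2 farthest pigs, and 0.62 and 0.36 within the scan dates. Once slide means were removed, r of MKI67 was 0.59 with TOP2A, 0.53 with CDK1, 0.42 with MCM2, 0.605 with CCNB1 and 0.49 with PCNA.

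CCNE1 and CDKN1A, which both fell with the HF diet, did not vary together between pigs of a group, at r = -0.22 and rho = -0.23 (permutation p = 0.115 and 0.109, adjusted p = 0.295 and 0.256). Without the 2 pigs farthest from the median of CCNE1, r was -0.10, and it was -0.31 and -0.15 within the scan dates. CDKN1A and TOP2A gave r = 0.07 and rho = 0.03 (permutation p = 0.649 and 0.822, adjusted p = 0.789 and 0.822), r = 0.06 without the 2 farthest pigs, and -0.23 and 0.38 within the scan dates.

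The members called had low median r with the mitosis genes, at -0.02 for WDHD1, 0.14 for CCNE1 and 0.12 for CDKN1A. The D-type cyclins CCND1, CCND2 and CCND3 and E2F1 lay lower, at -0.17 to -0.10, and CDC6, CDKN1B and CDKN1C at -0.02 to -0.01. With slide means removed the median r of E2F1 was 0.09, that of CDC6 0.15 and that of CDKN1C 0.07, while CCND1, CCND2, CCND3 and CDKN1B stayed at -0.13 to -0.01. The WDHD1 probe A_72_P132576 had 0.24. CDKN2C, read by 1 probe, had 0.62. CDK2 had 0.51 on its brightest probe and 0.03 to 0.35 on its other 5. RRM2 had the highest median r of all members, 0.85. KIF11 by its brightest probe had a median r of -0.26, while its dimmer probe A_72_P197867 had 0.68. CCNB2 likewise had 0.10 on its brightest probe and 0.74 on A_72_P440521. With slide means removed the brightest probe of KIF11 had -0.10 and that of CCNB2 0.45. The level on the brightest KIF11 probe was 1.11 higher on the second scan date, while CDK1 differed by -0.73. The brightest KIF11 probe varied with CCND1, CDC6 and CDKN1C, at r = 0.82, 0.79 and 0.71, which were also higher on the second scan date, by 0.34, 0.44 and 0.56. For AURKB the brightest probe had a median r of 0.12 and the dimmer A_72_P735663 and A_72_P745159 had 0.57 and 0.48. These values are given as descriptions, since arrays share slides and scan dates.

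**Figure D5:**
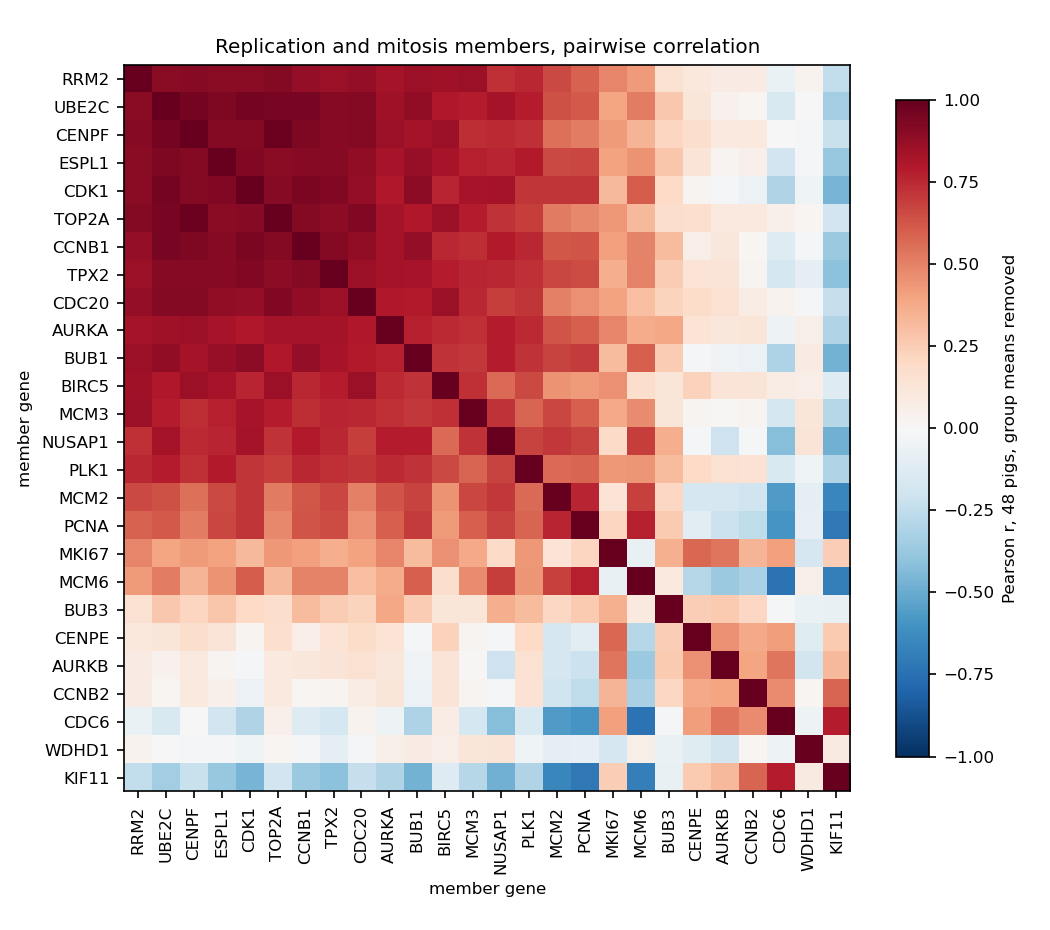
Pearson r between the 26 replication and mitosis members tested, across 48 pigs after removal of the group means, in the order of their median r with the mitosis genes (red positive, blue negative). A block from RRM2 to PLK1 varies together, while WDHD1 has r between -0.19 and 0.13 with the others and KIF11 opposes MCM2, MCM6 and PCNA.

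A wider list held 153 further cell cycle genes, sorted by function. Of these, 27 were not analysed here, 19 were below the filter on dim probes and the rest were tested. For diet 8 were called (7.48%, against 12.6% of all genes), 1 higher and 7 lower in HF pigs. For line none was called, in limma or in the unmoderated analysis of variance. In limma 8 of them had p under 0.05 for line before adjustment. For the interaction none was called, with 1 under 0.05. The gene called higher was NASP, a chaperone of histones, at 0.15 ± 0.04 (adjusted p = 0.0258 in limma).

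All 7 genes called lower in HF pigs were checkpoint and G1/S genes or genes of the anaphase-promoting complex. GADD45A, a stress gene that p53 can induce, fell by 0.52 ± 0.13 (adjusted p = 0.0069 in limma). CKS2, a small partner of the cyclin-dependent kinases, fell by 0.46 ± 0.10 (adjusted p = 0.00217 in limma). FZR1, which activates the anaphase-promoting complex in G1, fell by 0.37 ± 0.06 (adjusted p = 5.63e-05 in limma). CDC23, a subunit of that complex, fell by 0.33 ± 0.10, and E2F3 by 0.25 ± 0.07. MDM2, the inhibitor of p53, and E2F4 were the other two called.

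By function, 5 of 28 checkpoint and G1/S genes were called lower in HF pigs, and 2 of 20 genes of the anaphase-promoting complex, cohesin and condensin. These are 17.9% and 10% of the genes tested in each list, against the 9.32% of all genes called lower. Of 27 genes of the spindle, kinetochore and cytokinesis none was called, although 22 were higher in HF pigs and 22 were lower in low RFI pigs. Their medians were 0.13 and -0.11, against 62.3% and 41.4% of all genes below 0 by diet and by line. These 27 also vary together, with a median r of 0.52 after group means were removed, so their signs are not separate observations. HF high RFI pig 2 had the highest mean level of them. None of 8 genes of origin licensing and firing was called, and 1 of 24 of the DNA polymerases and replication fork was, NASP. Scaled to the 75th percentile of each array, the median diet difference of all genes moved from -0.04 to 0.0017 and the share of all diet calls that were higher in HF pigs from 26.1% to 52.1%. With that scaling 5 of the 9 further genes called were higher in HF pigs, and MCM2 passed the cut-offs. With quantile normalization the share was 39.5%. Of the line calls, 67.2% were higher in low RFI pigs, against 55.3% with the 75th percentile and 58.4% with quantile normalization. CCNE1 and CDKN1A were called lower under both.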

How the data were processed

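RNA of each pig was labelled with Cy3 and hybridized to an Agilent pig array, 8 to a slide. The authors deposited the scanner output of Feature Extraction 10.7.3.1, with linear intensity values and quality flags per spot. Their deposited table holds log2 values of 38987 probes, the log2 of median signals minus each array's median with no background subtraction, made in R 2.10.0 per the labels. Here log2 of the background-subtracted processed signal was centred on each array's median over 44356 probes well above background on at least 9 of 12 arrays of a group. The 1319 control spots were left out and 227 flagged spots set to missing. No spot was saturated.

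Of 60305 probes, 26764 were named with 12885 symbols through accessions and gene names of the reference gene table (Sscrofa11.1). Each gene was read by its brightest probe. No genome position is given because the array annotation lists every probe as unmapped.

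Diet, line and interaction were fitted over 48 arrays with limma 3.58.1 (lmFit, eBayes with trend, two-sided) in R 4.3.3. No source used here ties pigs to litters, and the number of arrays limits the precision. Intervals are 95%. limma was tested on simulated data with known changes. Slides (6) held 2 arrays of each group and scan dates (2) held 24 arrays. Array positions on the slides were not shared evenly by the diets. With position as a block, 991 genes were called by diet and 52 by line, against 1397 and 131 without it.

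The members and lists were chosen with earlier results of these data known. Values are given in full for members called, for the smallest p by diet and line in each role, and for MKI67, TOP2A, CDK1, CCNB1, PCNA and MCM2, and of the further genes for up to 5 called in each direction with the largest differences. Other genes named were chosen after their values were seen. Alternatives were other normalizations and filters, other probe choices, blocks for slide, scan date, position and replicate number, array weights and the methods' analysis of variance. Leaving out the 2 arrays with the fewest probes above background was added after seeing the data.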

Additional observations from a re-analysis of the deposited data

How the results depend on the processing

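The 3 members called by diet were 5 with slide, scan date or the replicate block added to the fit, where E2F1 and MCM2 joined, and 1 on the first scan date alone. The member called by line, WDHD1, gave 0 calls in the authors' table, which was read for 34 of the 38 members without its probe, and 0 on the second scan date alone. The 8 further genes called by diet were 4 on the first and 3 on the second scan date alone and 14 with the replicate block. The further genes called by line rose from 0 to 1, GINS2, with slide, scan date or the replicate block, and to 3 with array weights. Over all genes, the 1397 diet calls became 659 and 262 on the first and second scan date alone, and the 131 line calls ranged from 0 on the second scan date alone to 487 with array weights. The scan dates alone have 24 of the 48 arrays by construction, and the cause of the other shifts was not tested. All other alternatives kept the counts of members and further genes within 1.5 times, and no member was called for the interaction in any of them. For 13 members followed by diet and line, 424 of 438 values under the alternatives kept their side of the cut-offs, 7 called values missed them, 7 of MCM2 by diet passed, and no called value changed sign. CCNE1 missed them on the second scan date alone, CDKN1A on the first, and WDHD1 by line on the second, at -0.97. The replicate number was not used as a pairing, since the deviations of same-numbered pigs correlated at -0.22 to 0.45 (median 0.16, 72 pairs, 45 of them over 0.1). The median was 0.06 for other pairs on the same slide and -0.05 across slides, and each number lies on 1 slide. Signal over background limited RRM1 and KIF20A, and MKI67 was read near it.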
